A study of Mus musculus with 8 samples.

Results

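Interleukin 1 has a pair of agonist ligands (Il1a and Il1b), a secreted antagonist (Il1rn), a decoy receptor (Il1r2) and an accessory chain that the signalling receptor needs (Il1rap). These 5 genes, chosen by name, were followed through every count table of a single-cell RNA sequencing series on the mouse brain after stroke. All 5 were among the 20340 genes of the tables. The comparison of interest was how the agonists stood against the antagonist and the decoy in each cell type, hemisphere, genotype label and time.

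Interleukin 1 alpha and beta bind the type 1 receptor, which recruits the accessory protein encoded by Il1rap and signals through MYD88 and NF-kB. The receptor antagonist encoded by Il1rn occupies the same receptor without recruiting the accessory protein, and the type 2 receptor encoded by Il1r2 binds ligand but has no signalling domain. Interleukin 1 beta is made as a precursor that caspase-1 cuts, whereas the alpha precursor is already active. In stroke models both agonists are known as early products of microglia and invading myeloid cells, and recombinant antagonist lowers infarct size in rodents.

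The animals were male C57BL/6J mice of 8 to 9 weeks whose middle cerebral artery was blocked by a suture for 60 min and then reperfused. The 8 libraries were ipsilateral (the occluded side) and contralateral at 48 h and 24 h, each from mice labelled Prdx1-/- (lacking peroxiredoxin 1, a peroxidase that removes hydrogen peroxide) and from mice labelled WT (Prdx1+/+), with 1 library per combination. All mice had the occlusion, and none of the groups was sham-operated or untouched, so the contralateral hemisphere is tissue from operated mice and not a healthy brain. Cells were released with enzymes, cleared of myelin on Percoll, sorted as live cells and read with a 10x Genomics 3′ kit, which counts unique molecular identifiers (UMIs). How many mice made up a library is not given, so every p-value below measures the spread between libraries, which may be technical.

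The libraries held 39433266 to 70111421 UMIs as deposited, and 4019 to 5441 cells per library were used, at a median of 7153 to 12944 UMIs per cell. Prdx1 over all cells stood at 7.69 and 972 CPM (UMIs scaled to a common library total) in the ipsilateral 48 h libraries labelled Prdx1-/- and WT, and at 6.36 and 425 CPM in the contralateral ones. At 24 h it stood at 446 and 503 CPM in the ipsilateral libraries labelled Prdx1-/- and WT and at 101.1 and 278 CPM in the contralateral ones. The 24 h libraries labelled Prdx1-/- thus go against their label, and the effect of the label on the members is given at 48 h alone as well. Any 2 libraries shared 3 to 17 cell barcodes.

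Cells were clustered without the 5 members and named from marker genes. Named classes held 21101 microglia-like, 6412 monocyte/macrophage-like, 5770 neutrophil-like, 883 T and NK-like, 766 B-like and 331 border macrophage-like cells, and 2085 cells (5.48%) stayed unnamed. Microglia-like cells were a mean of 31.0% of ipsilateral cells and 82.2% of contralateral cells. Neutrophil-like cells were 25.7% and 3.56%, and monocyte/macrophage-like cells 27.5% and 5.18%, of the same libraries. A level per class is the CPM of that class's summed UMIs in a library, and classes were built from the same cells, so differences between classes are described and not tested.

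Il1a and Il1b are neighbours on mouse chromosome 2, at chr2:129299610-129309972 and chr2:129364570-129371139 on the minus strand of GRCm38, with 54.6 kb between them. Il1rn lies far from them at chr2:24336853-24351494 on the plus strand. Il1r2 is at chr1:40074079-40125231 and Il1rap at chr16:26581704-26730117, both on the plus strand, and all 5 are protein-coding genes. Because Il1a, Il1b and Il1rn were all higher in ipsilateral microglia-like cells, the 250 bases before their transcript starts are given from RefSeq (GRCm38.p6), 5′ to 3′ along the gene, with motif matches in capitals. The windows are chr2:129309973-129310222 and chr2:129371140-129371389 (both minus strand), chr2:24336610-24336859 and chr2:24345041-24345290 (plus strand, the first 2 of 3 Il1rn starts). The third Il1rn window is not shown because 83 of its bases lie in the first part of an annotated transcript of the gene. For the first 2 Il1rn windows this was 7 and 3 bases. The second window lies within the span of the gene given above.

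Il1a: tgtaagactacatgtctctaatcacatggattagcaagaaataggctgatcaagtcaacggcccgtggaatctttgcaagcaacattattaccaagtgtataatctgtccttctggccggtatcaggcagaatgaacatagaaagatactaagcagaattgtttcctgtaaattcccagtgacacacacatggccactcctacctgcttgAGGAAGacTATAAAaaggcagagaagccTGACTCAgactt
Il1b: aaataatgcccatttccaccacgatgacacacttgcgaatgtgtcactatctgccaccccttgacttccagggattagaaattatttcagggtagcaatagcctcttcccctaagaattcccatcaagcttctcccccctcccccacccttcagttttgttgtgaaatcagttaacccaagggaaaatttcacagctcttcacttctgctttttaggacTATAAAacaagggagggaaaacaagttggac
Il1rn start 1: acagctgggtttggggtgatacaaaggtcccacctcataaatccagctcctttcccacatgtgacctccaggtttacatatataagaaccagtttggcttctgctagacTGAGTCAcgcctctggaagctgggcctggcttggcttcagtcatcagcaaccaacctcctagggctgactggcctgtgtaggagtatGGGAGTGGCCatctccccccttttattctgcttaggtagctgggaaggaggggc
Il1rn start 2: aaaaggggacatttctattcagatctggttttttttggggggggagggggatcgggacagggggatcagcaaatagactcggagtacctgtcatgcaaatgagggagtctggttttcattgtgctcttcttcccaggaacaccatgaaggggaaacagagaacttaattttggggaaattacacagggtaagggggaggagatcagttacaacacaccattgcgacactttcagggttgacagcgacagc

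The motifs searched, on both strands, were an NF-kB-like motif (GGG, any 5 bases, then CC; in 45.8% of all 32851 windows of this length), an AP-1 motif (TGANTCA, in 6.75%), an ETS-type motif (AGGAAG, in 29.5%) and a TATA box (TATAAA, in 12.4%). Matches did not overlap one another in these windows. The Il1a window held the TATA letters 32 bases before the start, the AP-1 letters at 12 bases and the ETS-type letters at 40 bases. The Il1b window held the TATA letters 31 bases before the start and none of the other motifs. The upstream Il1rn window held the NF-kB-like letters at 54 bases and the AP-1 letters at 141 bases, and the second Il1rn window held none of the 4. The third Il1rn window, not shown, held the NF-kB-like letters 51 bases before its start. Their GC content was 42.4% (Il1a), 44.4% (Il1b), 53.2% and 48.4% (Il1rn), against a median of 52.4% over all windows. A match describes letters only.

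The 2 agonists had different main cell classes. Over the 8 libraries the median level of Il1a was 605 CPM in microglia-like cells, 103 CPM in neutrophil-like cells and 93.2 CPM in monocyte/macrophage-like cells. Il1b ran the other way, with a median of 10530 CPM in neutrophil-like, 4056 CPM in monocyte/macrophage-like, 2130 CPM in border macrophage-like and 536 CPM in microglia-like cells. Within microglia-like cells the 2 agonists were nearly level, with a log2 ratio of Il1a to Il1b UMIs between -0.22 and 0.32 in the 8 libraries. In monocyte/macrophage-like cells that log2 ratio lay between -6.44 and -4.71. These are 3′ UMI counts, which do not scale with transcript length, but capture can differ between genes, so such ratios are compared between libraries.

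Antagonist, decoy and accessory chain were highest in neutrophil-like cells. The median of Il1rn was 291 CPM there, 185 CPM in monocyte/macrophage-like cells, 33.0 CPM in border macrophage-like cells and 24.9 CPM in microglia-like cells. Each neighbouring pair in this order overlapped between libraries. For Il1r2 the medians were 1200 CPM in neutrophil-like and 101.1 CPM in monocyte/macrophage-like cells, and the lowest neutrophil-like library (761 CPM) was above the highest monocyte/macrophage-like one (287 CPM). Il1rap had medians of 165, 17.8 and 7.60 CPM in neutrophil-like, monocyte/macrophage-like and microglia-like cells, and these classes did not overlap in any library. The signalling receptor gene Il1r1, not itself a member, was low in the myeloid classes. It lay between 0.920 and 2.28 CPM in microglia-like cells and between 0 and 1.07 CPM in neutrophil-like cells, and reached 14.3 to 71.8 CPM in the 4 libraries with at least 20 pericyte-like cells.

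**Figure D1:**
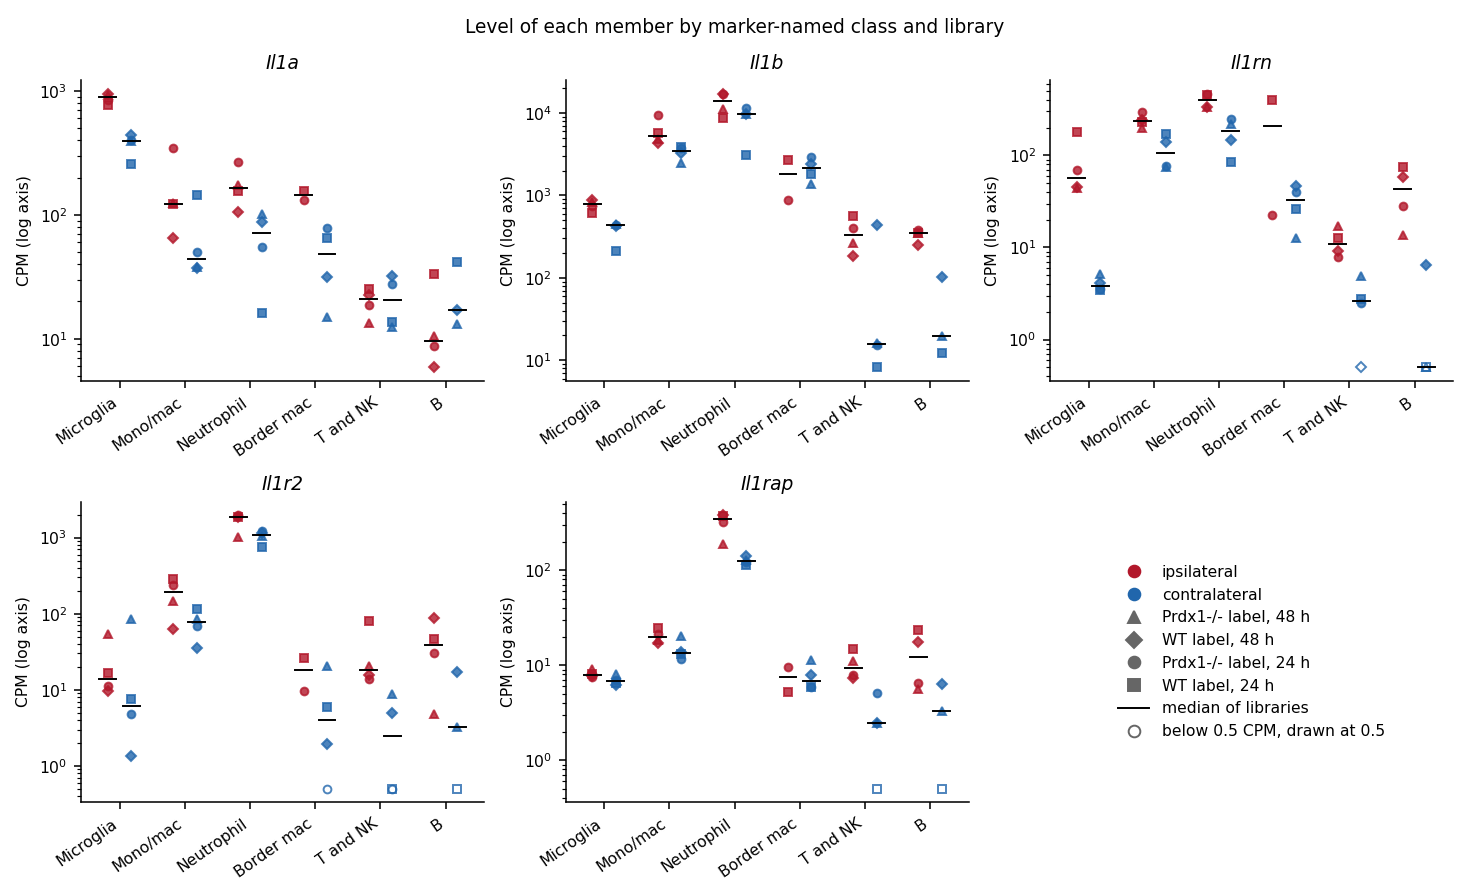
Level of each member (CPM on a log axis) in 6 marker-named classes, 1 point per library with at least 20 cells of the class, ipsilateral in red and contralateral in blue, with the median as a line. Il1a peaks in microglia-like cells (median 605 CPM), and Il1b, Il1rn, Il1r2 and Il1rap peak in neutrophil-like cells.

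The share of a member's UMIs that each class held followed both level and cell number. Microglia-like cells held 72.6% ± 14.1 of Il1a UMIs in the ipsilateral libraries and 95.4% ± 1.43 in the contralateral libraries (SD, n = 4 each). Of Il1b UMIs they held 7.05% in the ipsilateral and 34.5% in the contralateral libraries. Ipsilateral Il1b came mostly from monocyte/macrophage-like cells (46.6%) and neutrophil-like cells (35.6%), against 29.0% and 20.1% in the contralateral libraries. Monocyte/macrophage-like cells held the largest mean share of Il1rn UMIs on both sides, 48.5% ipsilateral and 47.1% contralateral. Neutrophil-like cells held 65.5% of ipsilateral and 51.1% of contralateral Il1r2 UMIs. For Il1rap the main class differed by side: neutrophil-like cells held 71.0% of ipsilateral UMIs against 26.4% of contralateral ones, and microglia-like cells held 5.59% against 51.3%.

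**Figure D2:**
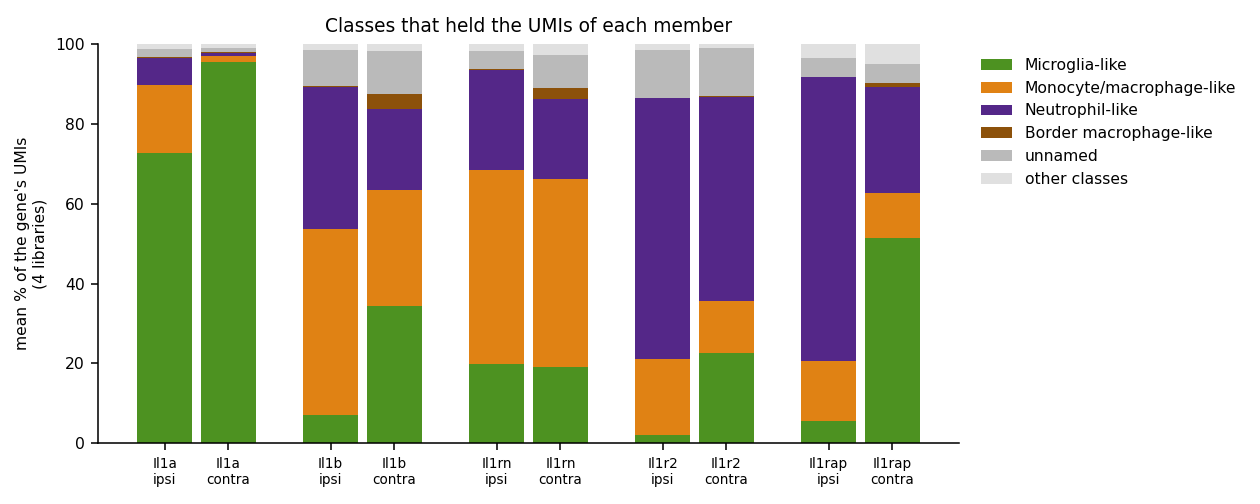
Mean share of each member's UMIs (percent, 4 libraries per bar) held by each class, ipsilateral left and contralateral right in each pair. Microglia-like cells hold most Il1a UMIs on both sides, and 71.0% of ipsilateral Il1rap UMIs lie in neutrophil-like cells.

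In microglia-like cells both agonists and the antagonist were higher on the side of the stroke. Il1a stood at 928 and 946 CPM in the ipsilateral 48 h libraries labelled Prdx1-/- and WT and at 851 and 771 CPM in the ipsilateral 24 h libraries with these labels. The contralateral libraries held 391 and 440 CPM at 48 h and 400 and 257 CPM at 24 h. No ipsilateral library overlapped a contralateral one. In a fit of hemisphere, genotype label and time over 8 libraries, Il1a rose by 1.31 on the log2 scale (SE 0.15; edgeR's quasi-likelihood test, Benjamini-Hochberg adjusted p = 0.000204; 2.13 to 3.0-fold over the 4 matched pairs).

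Il1b moved by a similar amount. It stood at 832 and 884 CPM in the ipsilateral 48 h libraries labelled Prdx1-/- and WT and at 750 and 616 CPM in the 24 h ones, against 455 and 426 CPM and 437 and 210 CPM in the matched contralateral libraries. The sides did not overlap, and the lowest value by far was the contralateral 24 h library labelled WT. Il1b rose by 1.11 (SE 0.20, adjusted p = 0.00344 in the same edgeR fit; 1.72 to 2.93-fold, higher in 4 of 4 pairs).

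The antagonist had the largest log2 change of the 4 members called there. Il1rn stood at 44.5 and 45.4 CPM in the ipsilateral 48 h libraries labelled Prdx1-/- and WT and at 68.7 and 179 CPM in the 24 h ones. In the contralateral libraries it stood at 5.21 and 4.12 CPM at 48 h and 3.59 and 3.42 CPM at 24 h. The ipsilateral values spread widely, with the 24 h library labelled WT highest, and all lay far above the contralateral ones. Il1rn rose by 4.27 (SE 0.58, adjusted p = 0.00533 by edgeR's quasi-likelihood test; 8.54 to 52.4-fold, 4 of 4 pairs), and stayed past the threshold under all 16 alternatives run (largest adjusted p = 0.0286).

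The receptor genes moved little or unevenly there. Here and further on, 4 values of a side stand for 48 h Prdx1-/-, 48 h WT, 24 h Prdx1-/- and 24 h WT by label. Il1rap stood at 9.10, 7.76, 7.44 and 8.15 CPM in the ipsilateral libraries and at 8.00, 6.14, 7.07 and 6.53 CPM in the contralateral ones, and the sides overlapped. Its rise of 0.30 (SE 0.11, adjusted p = 0.0489 by edgeR) was lost in 12 of 16 alternatives, DESeq2 among them (adjusted p = 0.0684). Il1r2 stood at 54.0, 9.73, 11.3 and 16.7 CPM in the ipsilateral libraries and at 86.2, 1.33, 4.87 and 7.51 CPM in the contralateral ones, and did not pass (0.63, SE 1.22, adjusted p = 0.706). Its 2 highest values were the 48 h libraries labelled Prdx1-/-, taken up further on. In all, 4 of 5 members were called in microglia-like cells, where 46.7% of all 13312 genes tested were called and 23.1% were called higher.

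**Figure D3:**
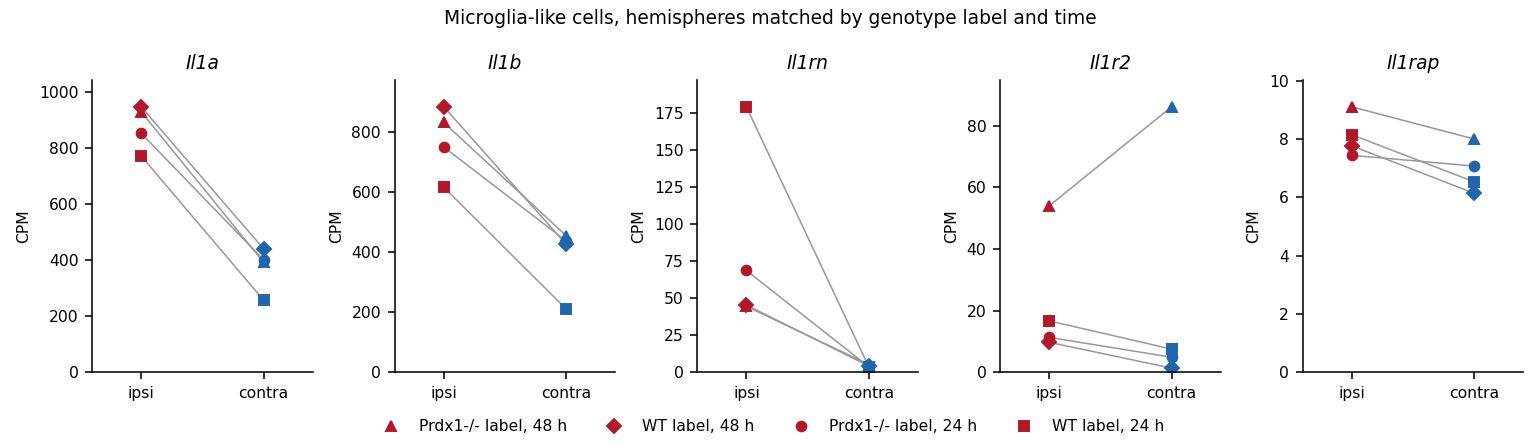
CPM of each member in microglia-like cells, ipsilateral left and contralateral right, with libraries of the same genotype label and time joined by a line. Il1a, Il1b and Il1rn are higher on the ipsilateral side in 4 of 4 pairs, and Il1r2 in 3 of 4.

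The share of microglia-like cells with a UMI showed the same order at equal depth. With each cell thinned to 2000 UMIs, Il1a was seen in 51.2% of ipsilateral and 30.7% of contralateral cells, Il1b in 35% and 12.7%, and Il1rn in 6.86% and 0.359% (means of 4 libraries each). Without thinning these shares were 75.5% and 59.6% (Il1a), 64.7% and 24.3% (Il1b), and 18% and 1.56% (Il1rn). T and NK-like cells, taken as the background, gave a thinned 2.12% and 4.98% for Il1a, 15.8% and 4.08% for Il1b, and 1.13% and 0.490% for Il1rn, where the median cell held 5889 UMIs (8253 in the microglia-like class). The contralateral Il1rn share in microglia-like cells was below the mean of that background. The background itself ran from 0 to 1.96% over the contralateral libraries, so this share is not told apart from it. By level, contralateral Il1rn stood at 13.7 to 22.4 CPM in microglia-like cluster 6 and 25.7 to 38.9 CPM in cluster 8. It was lower in the other microglia-like clusters compared, down to 0.193 CPM in cluster 3. T and NK-like clusters 14 and 21 held 0 to 3.88 CPM and 0 to 7.94 CPM. The other shares of these 3 genes were above the background.

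Transcripts of other cells moved with the same contrast in these sums. Of the 12 listed neutrophil markers 11 were tested and 5 were called higher, and their summed level was 196 to 907 CPM in ipsilateral and 22.6 to 159 CPM in contralateral microglia-like sums. Of the 12 monocyte and macrophage markers 8 were called higher (419 to 1040 CPM against 322 to 635 CPM), and of the 10 microglia markers 9 were called lower (9550 to 11900 CPM against 16200 to 24500 CPM). None of these 34 markers was at 0 in all libraries. Of all 13312 genes tested in these sums, 46.7% were called and 23.1% were called higher. Per 1000 UMIs of the neutrophil gene S100a8, microglia-like cells held a median of 655 ipsilateral and 137 contralateral Il1rn UMIs, and neutrophil-like cells 4.88 and 1.92. For Il1b the medians were 6720 and 13300 in microglia-like cells and 148 and 101 in neutrophil-like cells. Beyond these ratios, the part that RNA of other cells had in the result was not tested.

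Different clusters held most microglia-like cells on the 2 sides. Ipsilateral cells lay mostly in cluster 6 (led by Tnf, Ccl12 and Ccl2; median 26.9% of the class), cluster 1 (Egr1, Atf3 and Cd83; 23.8%) and cluster 8 (Mmp12, Spp1 and Lpl; 18.1%). Contralateral cells lay mostly in clusters 0 (P2ry12 and Siglech; 29.4%), 3 (Fosb and Jun; 17.9%) and 2 (Ccl12 and Bhlhe41; 17.3%), and cluster 8 was a median of 0.361% of them. Within cluster 6, Il1a was 1.31 to 2.50-fold higher on the ipsilateral side in 4 of 4 pairs, and within cluster 1 1.28 to 1.58-fold in 4 of 4. Il1b was higher in 2 of 4 pairs in each of these 2 clusters (0.701 to 2.32-fold and 0.855 to 1.06-fold). It was higher in 3 of 3 pairs in clusters 0 (1.85 to 4.91-fold), 2 (1.1 to 2.72-fold) and 3 (1.04 to 1.31-fold). In clusters 8 and 15 it was higher in 2 of 2 pairs (16.4 to 75.5-fold and 1.98 to 3.58-fold). The contralateral side of cluster 8 rested on 21 and 28 cells. Il1rn was higher in 4 of 4 pairs in clusters 6 and 1, by 1.64 to 5.88-fold in cluster 6 and 1.82 to 8.28-fold in cluster 1. The highest Il1rn levels were in cluster 8, at 171 to 259 CPM ipsilateral and 25.7 to 38.9 CPM contralateral in the 2 pairs with enough cells. These within-cluster values are descriptions, and the clusters were made from other genes of the same cells.

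In monocyte/macrophage-like cells Il1b and Il1rn were also higher on the ipsilateral side. Il1b stood at 4809 and 4288 CPM in the ipsilateral 48 h libraries labelled Prdx1-/- and WT and at 9471 and 5762 CPM in the 24 h ones, against 2448 and 3251 CPM and 3725 and 3824 CPM in the matched contralateral libraries. The sides did not overlap. Il1rn stood at 198, 244, 294 and 228 CPM in the ipsilateral libraries and at 75.4, 138, 76.2 and 172 CPM in the contralateral ones, again without overlap. Il1b rose by 0.89 (SE 0.19, edgeR adjusted p = 0.0404; 4 of 4 pairs) and Il1rn by 1.20 (SE 0.25, edgeR adjusted p = 0.0447; 4 of 4 pairs). These were 2 of 5 members called, where 4.41% of 10511 genes were called. Il1b was lost in 7 and Il1rn in 10 of 16 alternatives. Both were lost on leaving out any 1 of 5 libraries, the contralateral 24 h libraries of either label, the contralateral 48 h library labelled Prdx1-/- or either ipsilateral 48 h library (edgeR adjusted p 0.0611 to 0.141), and Il1rn also without the contralateral 48 h library labelled WT (0.0518). Il1a (1.29, adjusted p = 0.256), Il1r2 (1.18, adjusted p = 0.194) and Il1rap (0.43, adjusted p = 0.261) did not pass. A block for hemispheres matched by label and time changed which members were called: Il1rn was lost (edgeR adjusted p = 0.0616) and Il1r2 gained (edgeR adjusted p = 0.0192). Il1r2 was also called by DESeq2 (adjusted p = 0.00561) and by edgeR in the 48 h libraries alone (0.78, adjusted p = 0.000124). The make-up of the class differed by side, with cluster 4 (led by Vcan and Arg1) at a median of 58.7% of ipsilateral and 36.3% of contralateral cells. Within cluster 4 Il1b was higher in 3 of 4 pairs (0.882 to 2.87-fold), and within cluster 12 (Plac8 and Ear2) in 2 of 4 (0.789 to 1.88-fold). Il1rn was higher in 4 of 4 pairs in both, by 1.15 to 4.41-fold and 1.23 to 2.56-fold. Cluster 7 (Fabp5 and Ms4a7) was a median of 20.7% of ipsilateral and 28.9% of contralateral cells. Within it both genes were higher in the 2 pairs with enough cells, Il1b by 1.59 to 2.15-fold and Il1rn by 1.73 to 2.31-fold. Of 10 microglia markers tested in these sums 10 were called lower and of 10 neutrophil markers 1 was called higher, with summed neutrophil markers at 850 to 4270 CPM ipsilateral and 1310 to 9100 CPM contralateral.

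Neutrophil-like cells showed higher antagonist and accessory chain on the ipsilateral side. Il1rn stood at 336, 331, 464 and 455 CPM in the ipsilateral libraries and at 221, 146, 251 and 84.1 CPM in the contralateral ones. Il1rap stood at 191, 379, 320 and 374 CPM in the ipsilateral libraries and at 128, 140, 124 and 113 CPM in the contralateral ones. Neither gene overlapped between the sides. Il1rap rose by 1.38 (SE 0.23, edgeR adjusted p = 0.0156; 4 of 4 pairs) and Il1rn by 1.36 (SE 0.28, edgeR adjusted p = 0.0327; 4 of 4 pairs), 2 of 5 members where 2.62% of 8542 genes were called. As few as 45 neutrophil-like cells made up a library, and in the 48 h libraries alone Il1rn was at 0.81 (edgeR adjusted p = 0.327) and Il1rap at 0.93 (edgeR adjusted p = 0.296). Both calls were also lost on leaving out any 1 of 4 libraries, either ipsilateral 24 h library, the contralateral 24 h library labelled Prdx1-/- or the ipsilateral 48 h library labelled WT, and Il1rn without the contralateral 48 h library labelled WT (edgeR adjusted p 0.0695 to 0.147).

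The decoy, at its highest level in this class, did not pass. Il1r2 stood at 1007, 1892, 1964 and 1863 CPM in the ipsilateral libraries and at 1038, 1161, 1240 and 761 CPM in the contralateral ones. The ipsilateral 48 h library labelled Prdx1-/- lay among the contralateral values and the other 3 ipsilateral libraries lay above them (0.77, SE 0.27, adjusted p = 0.170). Il1b stood at 11230, 16820, 17000 and 8763 CPM ipsilateral and 9663, 9823, 11340 and 3047 CPM contralateral, with overlap (0.86, adjusted p = 0.224). Ipsilateral neutrophil-like cells lay mostly in clusters 5 (Il23a, Prnp and Cxcr2), 11 (Upp1, G0s2 and Cxcl3) and 10 (Retnlg and Ly6g), and contralateral ones in clusters 10 and 5. Cluster 11 was a median of 30.0% of ipsilateral and 2.95% of contralateral cells. Within cluster 10 Il1rn was 1.4 to 2.28-fold higher in 4 of 4 pairs and Il1rap 0.699 to 1.86-fold, higher in 3 of 4. Within cluster 5, in the 2 pairs with enough cells, Il1rn stood at 347 to 628 CPM ipsilateral and 317 to 619 CPM contralateral, at most 1.09-fold higher, and Il1rap was 1.26 to 1.56-fold higher. The 12 neutrophil markers were all tested and none was called, while 9 of 10 microglia markers were called lower, where 2.62% of 8542 genes were called.

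In T and NK-like cells none of the 4 members tested passed edgeR's test, 2 had an unadjusted p under 0.05, and DESeq2 called 1. Of all genes edgeR called 104 (1.30% of 8016) and DESeq2 113. Il1b there stood at 267, 186, 399 and 568 CPM ipsilateral and at 16.1, 435, 15.2 and 8.20 CPM contralateral. In the same order, summed neutrophil markers stood at 1370, 767, 1280 and 6030 CPM ipsilateral and at 10400, 137, 68.2 and 148 CPM contralateral. The part that RNA of other cells had in these Il1b values was not tested.

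Over whole libraries, 4 of 5 members were called, where 46.4% of 15476 genes were called. A whole-library level mixes how many cells of a class there are with how much each holds, and the 2 cannot be told apart in it. Il1rn rose by 3.69 (SE 0.28), Il1r2 by 2.87 (SE 0.49), Il1b by 2.6 (SE 0.28) and Il1rap by 2.41 (SE 0.15), with adjusted p between 0.000240 and 0.00403 in edgeR's quasi-likelihood test and 4 of 4 pairs for each. Il1a was 0.44 (SE 0.30, adjusted p = 0.261) and higher in 2 of 4 pairs, beside the drop of microglia-like cells to a mean of 31.0% of ipsilateral cells, against 82.2% of contralateral cells.

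The antagonist was set against the agonists as the log2 ratio of Il1rn UMIs to Il1a plus Il1b UMIs in a library. In microglia-like cells the ratio was -5.30 and -5.33 in the ipsilateral 48 h libraries labelled Prdx1-/- and WT and -4.54 and -2.95 in the 24 h ones, against -7.34 and -7.71 and -7.86 and -7.09 in the matched contralateral libraries. Per 100 agonist UMIs this was 2.53, 2.48, 4.29 and 12.9 antagonist UMIs ipsilateral and 0.616, 0.477, 0.428 and 0.733 contralateral. The sides did not overlap. The difference of 2.97 gave p = 0.0286 in a two-sided exact permutation test of 4 against 4 libraries, the smallest p this design allows, and an adjusted p of 0.428 over 30 such tests. The ratio was higher on the ipsilateral side in 4 of 4 pairs, and the adjusted p did not pass. It could pass only if many of the 30 tests reached that smallest p, so the adjusted test could not decide for a single ratio.

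In the other myeloid classes the groups overlapped, and the difference between classes was not tested. The ipsilateral minus contralateral difference of the same ratio was 0.30 in monocyte/macrophage-like and 0.49 in neutrophil-like cells. Over whole libraries it was 1.43 (exact permutation p = 0.0286, adjusted p = 0.428), without overlap. For the decoy, neutrophil-like cells held 8.83, 11.2, 11.4 and 20.9 Il1r2 UMIs per 100 agonist UMIs ipsilateral and 10.6, 11.7, 10.9 and 24.8 contralateral. The decoy ratio differed by -0.13 in neutrophil-like, 0.33 in monocyte/macrophage-like and -0.02 in microglia-like cells, and none of these had groups apart.

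**Figure D4:**
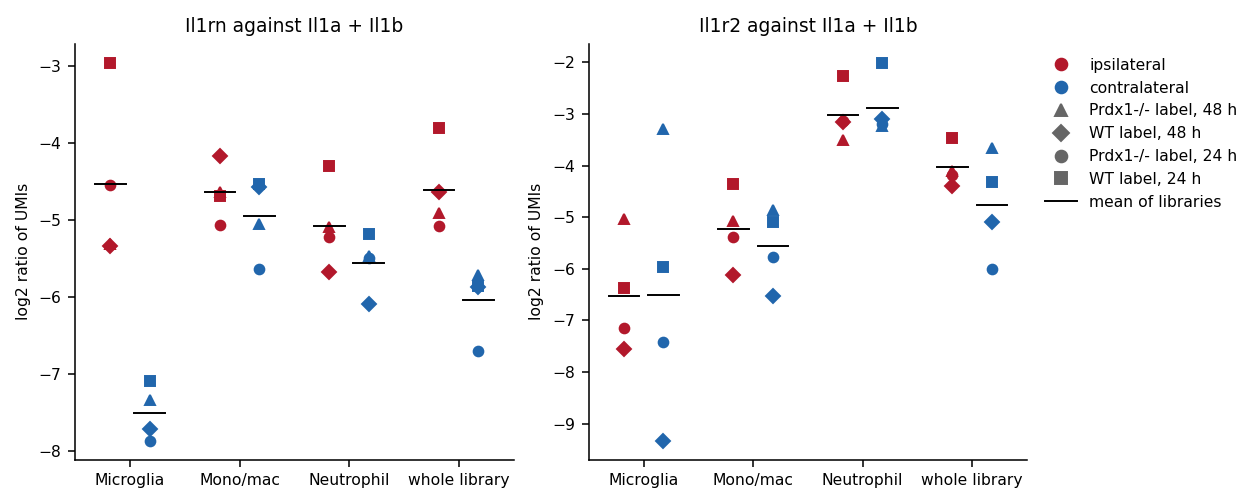
Log2 ratio of Il1rn (left) and of Il1r2 (right) UMIs to Il1a plus Il1b UMIs by class, 1 point per library, ipsilateral in red left of contralateral in blue, with the mean as a line. The sides are apart for Il1rn in microglia-like cells (difference 2.97) and whole libraries (1.43).

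Fewer members were called for time than for hemisphere. In the additive fit no member was called for 48 h against 24 h in any of the 5 sums by edgeR (24 tests, 5 with an unadjusted p under 0.05), and DESeq2 called 4. Of all genes, edgeR called 11.5% in microglia-like cells, 5.65% in monocyte/macrophage-like cells, 0.421% in neutrophil-like cells, 0.0374% in T and NK-like cells and 16% in whole libraries. All shares of genes in this paragraph are edgeR's, and DESeq2's own are not given beside its counts. Within the ipsilateral hemisphere Il1b of monocyte/macrophage-like cells fell by 0.83 (SE 0.19, edgeR adjusted p = 0.0451; 4.04% of genes called). The 48 h levels were 4809 and 4288 CPM and the 24 h levels 9471 and 5762 CPM under the labels Prdx1-/- and WT, so both pairs fell. Il1a over whole ipsilateral libraries fell by 1.23 (SE 0.28, edgeR adjusted p = 0.0448; 12.2% of genes called), with 217 and 187 CPM at 48 h and 507 and 554 CPM at 24 h. That call was lost with DESeq2's size factors in edgeR (adjusted p = 0.0519). Under the labels Prdx1-/- and WT, microglia-like cells were 534 of 4844 and 601 of 4926 ipsilateral cells at 48 h. At 24 h they were 2137 of 5441 and 3123 of 5080. Within ipsilateral microglia-like cells the Il1a levels given above were higher at 48 h than at 24 h under both labels. The part that cell numbers had in the whole-library fall was not tested. Ipsilateral microglia-like Il1rn was -1.38 (SE 0.38, adjusted p = 0.168) by edgeR, and DESeq2 called it. Of all genes, 10.9% were called within the ipsilateral hemisphere in microglia-like, 0.913% in neutrophil-like and 0.0998% in T and NK-like cells. No difference in the time effect between hemispheres passed edgeR's test (lowest adjusted p = 0.118; 7 of 24 with an unadjusted p under 0.05; 3 called by DESeq2), where 0.473% of genes were called in microglia-like, 0.333% in monocyte/macrophage-like, 0.0499% in T and NK-like and 0% in neutrophil-like cells and whole libraries.

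No member was called for the genotype label, Prdx1-/- against WT, in the additive edgeR fit (0 of 24 tests also at an unadjusted p under 0.05, and 0 by DESeq2), where 0.0451% of genes were called in microglia-like cells, 0.0285% in monocyte/macrophage-like cells and 0% in the other sums. Within the ipsilateral hemisphere edgeR called 0 of 24 (4 with an unadjusted p under 0.05; 1 called by DESeq2), where it called 0.0451% of genes in microglia-like, 0.209% in monocyte/macrophage-like, 0.105% in neutrophil-like and 0.0125% in T and NK-like cells. For the difference between hemispheres it called 0 of 24 (3 with an unadjusted p under 0.05; 1 called by DESeq2), against 0.0225%, 0.00951%, 0.0351% and 0.025% of genes in the same 4 classes. Whole libraries gave 0% in both. Since the 24 h libraries labelled Prdx1-/- hold Prdx1 UMIs, the label was also fitted at each time, an alternative chosen after the data were seen. At 48 h edgeR called 0 of 24 (3 with an unadjusted p under 0.05; DESeq2 called 2, Il1r2 in microglia-like and in monocyte/macrophage-like cells), where edgeR called 0.0451% of genes in microglia-like and 0.0476% in monocyte/macrophage-like cells and 0% in the other sums. At 24 h edgeR called 0 of 24 (5 with an unadjusted p under 0.05, and DESeq2 called 2), where edgeR called 0.025% of genes in T and NK-like cells and 0% elsewhere. All shares of genes in this paragraph are edgeR's, and DESeq2's own are not given beside its counts. Over the alternatives to the additive fit, genes called for the label ran from 0 to 247 in microglia-like cells (6 in the main fit). In monocyte/macrophage-like cells they ran from 0 to 295 (3 in the main fit).

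The 48 h pattern of Il1r2 in microglia-like cells stood apart by size. It was 54.0 CPM in the ipsilateral and 86.2 CPM in the contralateral library labelled Prdx1-/-, against 9.73 CPM (ipsilateral) and 1.33 CPM (contralateral) under the label WT. At 24 h Il1r2 was 11.3 and 4.87 CPM under the label Prdx1-/-, against 16.7 and 7.51 CPM under the label WT. The neutrophil gene S100a8 moved the same way at 48 h in these sums, at 300.1 and 47.3 CPM under the label Prdx1-/-, against 66.4 and 25.2 CPM under the label WT. At 24 h S100a8 was 109.6 and 4.80 CPM under the label Prdx1-/-, against 93.3 and 37.4 CPM under the label WT. For Il1r2 the 48 h difference was 4.23 (SE 0.96, unadjusted p = 0.0129, edgeR adjusted p = 0.299), and the 24 h difference -0.52. The difference between the times was 4.75 (unadjusted p = 0.0208, edgeR adjusted p = 0.70; DESeq2 adjusted p = 0.0499). For that difference edgeR called 0 of 24 (7 with an unadjusted p under 0.05, and DESeq2 called 1). Of all genes, edgeR called 0.0225% in microglia-like, 0.00951% in monocyte/macrophage-like and 0.0873% in T and NK-like cells, and DESeq2's own share is not given. The 48 h difference was 2.93 when the highest contralateral library was left out. In monocyte/macrophage-like cells Il1r2 at 48 h was 147 and 85.5 CPM under the label Prdx1-/-, against 62.9 and 35.7 CPM under WT (1.20, unadjusted p = 0.00251, edgeR adjusted p = 0.383), and in neutrophil-like cells 1007 and 1038 CPM, against 1892 and 1161 CPM. As a description, on the scale of log2(CPM + 1) the gap between the lower 48 h library labelled Prdx1-/- and the highest of the other 6 in microglia-like cells was 1.64 for Il1r2. The stefin genes Stfa1 and Stfa2l1, which neutrophils express, showed the same pattern at low levels, with 2.28 CPM against 0.112 CPM and 5.17 CPM against 1.38 CPM, which are wider ratios than that of Il1r2.

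Cells with an Il1r2 UMI were unevenly spread over the clusters. In the contralateral 48 h library labelled Prdx1-/- cluster 6 held 312 CPM, with a UMI in 137 of 274 cells (50%, 95% exact binomial interval 43.9 to 56.1), against 1.95 CPM and 3.11% of 193 cells under the label WT. Of the 504 microglia-like cells with a UMI in that contralateral library, 226 lay in cluster 2. Cluster 2 held 110.3 CPM there, with a UMI in 21.4% of 1057 cells, against 0.989 CPM and 1.0% of 400 cells under WT. Cluster 1 held 59.2 CPM, with a UMI in 19.2% of 484 cells, against 1.035 CPM and 1.14% of 525 cells under WT. In the ipsilateral 48 h library labelled Prdx1-/- cluster 6 held 130 CPM, with a UMI in 48.8% of 168 cells (41.0 to 56.6), against 5.17 CPM and 9.52% of 42 cells under WT. Such intervals cover counting error only. Over all microglia-like cells the share was 24.5% and 17.0% in the ipsilateral and contralateral libraries labelled Prdx1-/-, against 11.3% and 1.26% in those labelled WT, unthinned. Among 1057 contralateral cells of that library without a UMI of 4 neutrophil genes (S100a8, S100a9, Retnlg and Stfa2l1), Il1r2 stood at 110 CPM, against 1.36 CPM in the library labelled WT. Per 1000 S100a8 UMIs, microglia-like cells held 180 and 1821 Il1r2 UMIs in the ipsilateral and contralateral libraries labelled Prdx1-/- at 48 h, and neutrophil-like cells 9.74 and 11. The ipsilateral ratio was close to that of the other ipsilateral libraries (147, 103 and 179 Il1r2 UMIs in 48 h WT, 24 h Prdx1-/- and 24 h WT by label). The contralateral ratio was the highest, with 52.8, 1016 and 201 in the other contralateral libraries in the same order. The part that neutrophil RNA had in the Il1r2 difference was not tested beyond these values.

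Within cluster 6 of the contralateral library, the 137 cells with an Il1r2 UMI held less of several microglia genes than the 137 without. Tmem119 stood at 257 CPM with and 439 CPM without a UMI, Gpr34 at 106 and 508 CPM, Fcrls at 223 and 986 CPM and Olfml3 at 60.3 and 506 CPM. S100a8 stood at 121 and 37.8 CPM and Stfa2l1 at 35.4 and 0 CPM in the same cells, while S100a9 stood at 51.7 and 63.5 CPM and Retnlg at 13.8 and 16.6 CPM. In cluster 6 of the ipsilateral library Gpr34 stood at 99.4 CPM with and 267 CPM without an Il1r2 UMI and Fcrls at 414 and 957 CPM, but P2ry12 at 214 and 203 CPM and S100a8 at 284 and 310 CPM. In cluster 2 of the contralateral library Gpr34 stood at 355.5 CPM with and 801.8 CPM without an Il1r2 UMI and Fcrls at 339.6 and 1245 CPM. S100a8 stood at 60.24 and 41.76 CPM there, Stfa2l1 at 49.65 and 0.597 CPM and Retnlg at 13.24 and 13.87 CPM. Each of these splits is within 1 library and by the gene itself, and no test was made.

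**Figure D5:**
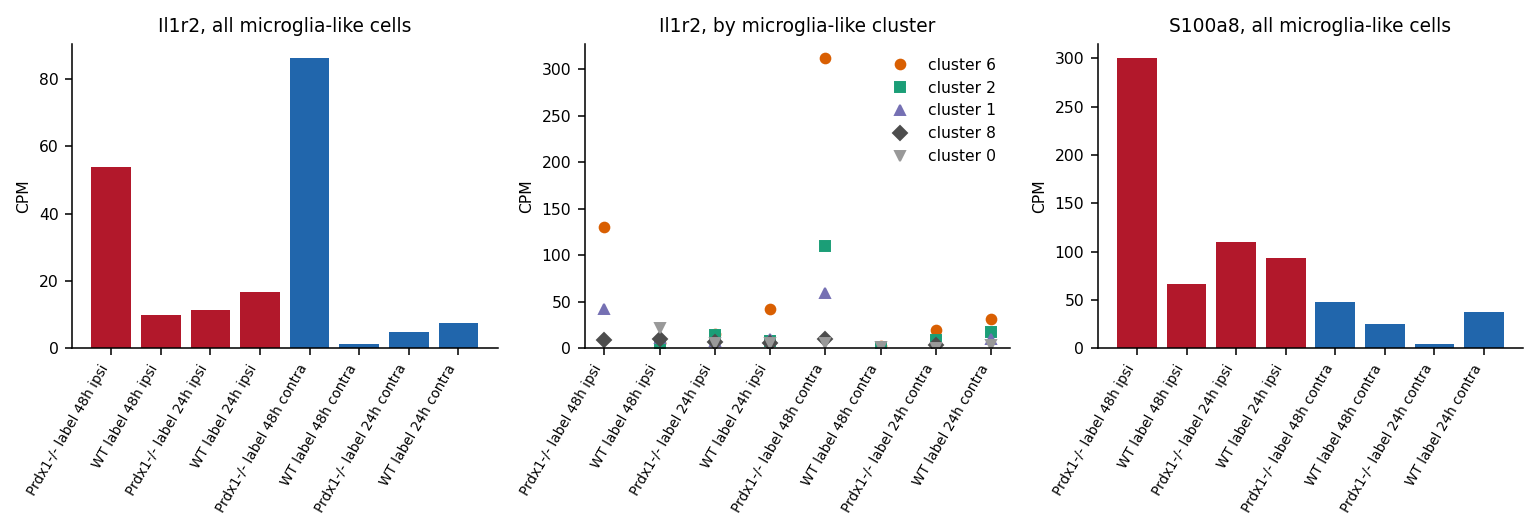
Il1r2 in microglia-like cells (CPM) by library, for all cells (left) and by cluster (middle), beside S100a8 in the same cells (right). The 48 h libraries labelled Prdx1-/- are the highest on each side (54.0 CPM ipsilateral, 86.2 CPM contralateral), and cluster 6 is highest in both.

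Single cells often held both agonists. With cells thinned to 2000 UMIs, 64.7% to 67.6% of ipsilateral microglia-like cells with an Il1b UMI also had an Il1a UMI, against 39.6% to 47.1% of those without Il1b. In the contralateral libraries the shares were 47.5% to 58.1% with Il1b and 21.2% to 30.6% without. In 8 of 8 libraries the share was higher with Il1b. Il1rn was seen in 6.09% to 16.1% of ipsilateral microglia-like cells with Il1b and 3.70% to 9.72% of those without.

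Over 58 sums of class and library, which share libraries and depth, log2(CPM + 1) of Il1b and Il1rn had a Pearson r of 0.84 and that of Il1r2 and Il1rap 0.81, as a description. Il1a stood apart, with r between 0.17 and 0.32 to the other members. The genes most like Il1a among 5825 compared were Gpr84, Cd9 and Mafg (r 0.85 to 0.86), those most like Il1b were Cd80, Ifitm2 and Cxcl2 (0.89 to 0.90), and those most like Il1rn were Cxcl2, Tnfaip2 and Clec4e (0.84 to 0.87). Il1r2 was closest to Trem1, Lcn2 and Mcemp1 (0.90 to 0.92) and Il1rap to Dmxl2, AC110211.1 and Adipor1 (0.84 to 0.89).

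The rest of the pathway was described from 3 lists. Of the 20 receptor signalling genes, all tested in microglia-like cells, 6 were called higher ipsilaterally, 2 lower and 12 did not pass (median 0.16, against -0.01 over all genes). Of all genes 46.7% were called there and 23.1% called higher, so these shares lay near the background. Myd88, the adaptor of the receptor, rose by 0.61 and Irak3, which restrains it, by 0.87. Nfkbiz, an induced regulator of NF-kB targets, rose by 1.18 and Rela, an NF-kB subunit, by 0.37. In neutrophil-like cells 3 of 19 were called higher, Nfkbiz (1.20), the deubiquitinase Tnfaip3 (1.33) and Myd88 (0.82), where 2.62% of all genes were called. In monocyte/macrophage-like cells edgeR called 0 of 20, where it called 4.41% of all genes.

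Of 12 genes for maturation and release, 10 were tested in microglia-like cells, 4 were called higher and 1 lower (median 0.77), a share called near the 46.7% of all genes. Nlrp3, the inflammasome sensor that activates caspase-1, rose by 1.91 (SE 0.14, edgeR adjusted p = 4.19e-05) and the calpain gene Capn2 by 1.86, while Gsdmd, the pore former, fell by 0.29. Nlrp3 also rose by 1.31 in monocyte/macrophage-like cells (edgeR adjusted p = 0.00616), as 1 of 12 there, where 4.41% of all genes were called. In neutrophil-like cells 0 of 11 were called, where 2.62% of all genes were called. Of 15 other family ligands and receptors 11 were in the tables, and 8 were tested in microglia-like cells. Of these 8, 2 were called higher, 2 lower and 4 did not pass, beside the 46.7% of all genes called. Il1f9 (interleukin 36 gamma) rose by 4.19 and Il33 by 2.16, and Il1rl2 (the interleukin 36 receptor) and Il18 fell by 0.61 and 0.29. Il1f9 also rose by 1.52 in neutrophil-like cells (edgeR adjusted p = 0.00956), as 1 of 6 tested there.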

How the data were processed

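UMI counts per gene and cell were taken as deposited: whole numbers in 1 table per library, with no normalization. Per the submitters' processing notes, Cell Ranger, Seurat and mm10 were used, and versions are not given in the sources used here. The deposited tables held 39945 cells, with at least 501 UMIs each. A cell was kept when 200 or more genes were seen in it and mitochondrial genes gave no more than 10% of its UMIs (39608 cells), and the 1583 with the highest simulated-doublet scores (0.8% per 1000 cells of a library) were left out, which left 38025.

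Counts were scaled to 10000 per cell. The 2000 most variable genes, without the 5 members and Prdx1, gave 30 principal components, 15 neighbours and Leiden clusters at resolution 1.0 (scanpy 1.11.5, leidenalg 0.10.2). The 34 clusters were named from marker lists where at least 3 markers were seen, and the naming thresholds were set after the clusters were seen. A class needed 20 cells in a library. UMIs were summed per class and library and fitted with edgeR 4.0.16 (quasi-likelihood, TMM, filterByExpr; R 4.3.3), with hemisphere, genotype label and time as additive terms over 8 libraries. Further fits had interactions, including one of genotype label by time chosen after the data were seen. Adjusted p-values are Benjamini-Hochberg over all genes of a fit, called under 0.05, and DESeq2 1.42.0 was an alternative. The fit was tested on simulated data: of 200 genes changed in microglia-like cells (13312 genes), it recovered 136 at 2-fold and 193 at 4-fold. In monocyte/macrophage-like cells (10511 genes) it recovered 105 and 191, and in neutrophil-like cells (8542 genes) 70 and 176. The simulated counts had the same fixed spread for every gene and class and no effect of label or time. The numbers recovered are therefore not the power for genes that spread more between libraries.

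Log2 ratios used a pseudocount of 0.5 UMI and exact permutation tests. The members and lists were chosen with earlier results of these data known. Named genes outside the members are the list genes with the smallest p per class, and those with the highest correlation to a member. Intervals are exact binomial at 95% and cover counting error only. Depth per library was 39433266 to 70111421 UMIs.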

Additional observations from a re-analysis of the deposited data

Results flagged for a closer look

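Of 50 groups of 4 libraries (5 members, 5 sums, both sides), 7 had 1 library far from the other 3. The 4 libraries of a group differ in label and time, and the 50 groups share libraries. The count of 7 is therefore not set against a rate expected by chance. In microglia-like cells, Il1r2 in the 48 h library labelled Prdx1-/- was far above the others on both sides, at 53.97 CPM against at most 16.69 CPM in the other ipsilateral libraries and 86.16 CPM against at most 7.509 CPM in the other contralateral ones. Il1b in microglia-like cells was far below the rest in the contralateral 24 h library labelled WT, at 210.2 CPM against 425.9 to 454.7 CPM. Il1a in monocyte/macrophage-like cells was far above in that library, at 145.4 CPM against 37.41 to 50.5 CPM.

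In neutrophil-like cells Il1r2 was far below in the ipsilateral 48 h library labelled Prdx1-/-, at 1007 CPM against 1863 to 1964 CPM. In T and NK-like cells Il1b was far above in the contralateral 48 h library labelled WT, at 435.1 CPM against 8.195 to 16.11 CPM. Il1r2 in the same class was far above in the ipsilateral 24 h library labelled WT, at 80.29 CPM against 13.89 to 20.73 CPM.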

How the results depend on the processing

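Of 1196 recomputed values, 927 were classed as unchanged, 42 lost and 22 gained a call, 190 moved and 15 reversed. For fold changes and ratios, unchanged meant the same direction and the same side of the threshold. For counts it allowed a small relative change, so 4 members called in microglia-like cells becoming 3 was classed as unchanged. For shares of cells it meant a change smaller than the SD between libraries. Counts and shares beyond these limits were classed as moved. Calls of Il1a, Il1b and Il1rn in microglia-like cells were kept under all 16 alternatives (log2 changes 1.09 to 1.46, 0.90 to 1.32 and 3.31 to 4.63), and 3 or 4 members were called there. With DESeq2, 1 member was called in place of 0 in microglia-like cells for time within the ipsilateral side, time by hemisphere, the label at 48 h, the label at 24 h and label by time. In monocyte/macrophage-like cells DESeq2 called 2 in place of 0 for time, 2 in place of 1 for time within the ipsilateral side, and 1 in place of 0 for the label within the ipsilateral side, the label by hemisphere and the label at 48 h. For hemisphere DESeq2 called 3 in place of 2 in both monocyte/macrophage-like and neutrophil-like cells. Of genes of all kinds it called 719 in place of 464 and 392 in place of 224 in these classes. For contrasts other than hemisphere, DESeq2's count over all genes is not given. DESeq2 also called 1 in place of 0 for time by hemisphere in neutrophil-like cells, hemisphere in T and NK-like cells, and time by hemisphere and the label at 24 h in whole libraries, and 2 in place of 0 for time in whole libraries. DESeq2's size factors in edgeR left 0 of 1 for time within the ipsilateral side in whole libraries.

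For hemisphere in monocyte/macrophage-like cells, 2 became 0 with no filter on low counts, 0 with cells classed by marker score and 1 with cells up to 5% mitochondrial UMIs. For hemisphere in neutrophil-like cells, 2 became 5 with no filter, 1 by marker score and 0 in the 48 h libraries alone. In T and NK-like cells 0 became 1 by marker score and 2 with doublets kept, and for the label in monocyte/macrophage-like cells 0 became 1 in the 48 h libraries alone. Leaving out 1 library at a time gave 0 to 2 members for hemisphere in monocyte/macrophage-like cells, 0 to 4 in neutrophil-like cells and 0 to 1 in T and NK-like cells. It gave 0 to 1 for time in monocyte/macrophage-like cells (1 without the contralateral 48 h library labelled WT) and in whole libraries (1 without the contralateral 24 h library labelled WT or the ipsilateral 24 h library labelled Prdx1-/-). In microglia-like cells it gave 0 to 1 for the label at 24 h and for label by time (1 without the ipsilateral 24 h library labelled WT).

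Reversals concerned values that had not passed a test. Il1r2 in microglia-like cells (0.63) ran from -0.0953 without the ipsilateral 24 h library labelled WT to 2.069 without the contralateral 48 h library labelled Prdx1-/-. Il1a in T and NK-like cells (-0.13) ran from -0.403 to 0.2424 without 1 library and was 0.6994 with doublets kept, and over whole libraries (0.44) it was -0.1717 in the 48 h libraries alone. The Il1r2 ratio in microglia-like cells (-0.02) was 0.07438 against Il1b alone and ran from -0.965 to 1.046 without 1 library, and that in neutrophil-like cells (-0.13) ran from -0.383 to 0.1605. Against Il1a alone, the Il1rn ratio was -0.1142 in monocyte/macrophage-like and -0.3628 in neutrophil-like cells, and the Il1r2 ratio was -0.09118 in monocyte/macrophage-like cells. The cause of these changes was not tested.

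Genes of all kinds called for hemisphere numbered 6213 in microglia-like cells and 3330 in the 48 h libraries alone. In monocyte/macrophage-like cells 464 were called, against 157 to 439 without 1 library, 778 with no filter, 719 by DESeq2, 161 by marker score and 984 in the 48 h libraries alone. In neutrophil-like cells 224 were called, against 15 to 1038, 867, 392, 101 and 3, and in T and NK-like cells 104, against 11 to 214 over all alternatives. For time, leaving out 1 library gave 809 to 1450 genes in microglia-like cells (1530 with all 8), 223 to 822 in monocyte/macrophage-like cells (594, and 14 by marker score), 4 to 247 in neutrophil-like cells (36), 1 to 16 in T and NK-like cells (3) and 0 to 2596 in whole libraries (2470). The libraries carry no replicate numbers, and the labels do not say whether matched hemispheres came from the same mice. A block for hemispheres matched by label and time called 4, 2, 2, 0 and 4 members in microglia-like, monocyte/macrophage-like, neutrophil-like and T and NK-like cells and whole libraries, with Il1r2 (adjusted p = 0.0192) in place of Il1rn (0.0616) in monocyte/macrophage-like cells. The alternative that kept only microglia-like clusters led by a microglia marker was not run, since it left 4 cells in 1 library.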
